A study of Mus musculus with 39 samples.

Results

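The genes described here encode the proteins of the cytosolic ribosome. They were chosen by symbol, as every gene named Rpl or Rps with a number and at most a final a or x, plus Rplp0, Rplp1, Rplp2 and Rpsa, with pseudogenes left out. The rule found 76 of the 54735 genes of the liver table and the same 76 of the spleen table, of which 46 encode proteins of the large 60S subunit and 30 proteins of the small 40S subunit. All 76 passed the minimum mean of 10 normalised reads in both tissues, where 16155 genes in liver and 19058 in spleen were tested. Rps3a1 and Fau also encode ribosomal proteins but lie outside the symbol rule, and are counted below with other relatives.

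The mRNA libraries came from livers and spleens of 4-week-old C57BL/6 animals. The groups were SXR knockout with PCB-153 (KP), SXR knockout with DMSO (KD), wild type with PCB-153 (WP) and wild type with DMSO (WD), and a library is named by its group and replicate number. SXR, also called PXR and encoded by Nr1i2, is a nuclear receptor that switches on drug metabolism genes, and PCB-153 is a persistent polychlorinated biphenyl, dosed daily at around 54 µg per kg from the perinatal period on, with DMSO as its vehicle. Each group had 5 libraries, apart from 4 WD spleens, which gives 39 libraries with 15.23 to 29.52 M assigned reads (M, 1e6 reads). Whether replicate libraries stem from separate animals is not stated in the labels, and the p-values below cover no more than the spread among the libraries at hand, which may be technical. The liver and spleen libraries were made as separate sets and run in separate lanes, so tests stay within a tissue.

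The labels were checked on Nr1i2. Its normalised read count was 612 to 1160 in KP livers and 449 to 969 in KD livers, against 1020 to 1940 in WP livers and 1330 to 1780 in WD livers (3 digits). In spleen the order was the opposite, with 39 to 68 reads in every library labelled knockout and 0 to 3 reads in every wild-type one. For spleen, knockout is thus given below as the label has it, and each direction drawn from it rests on that label. Hepatocyte markers took 10.2 to 13.2% of liver reads and pancreas markers 0.209% of the reads of spleen KP4 and 0.028% of spleen KP1, where the other spleens had at most 0.00367%. The highest spleen shares of hepatocyte markers were 0.0635% in KD, 0.0184% in WP, 0.00703% in WD and 0.00076% in KP. Their group medians were 0.000185 to 0.00166%.

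Ribosomal proteins assemble with ribosomal RNA in the nucleolus, and a cell needs about one copy of each protein per ribosome. Most of their mRNAs start with a C followed by a run of pyrimidines, the terminal oligopyrimidine motif, through which mTOR signalling and the RNA-binding protein LARP1 control their translation and stability. Liver, which secretes plasma proteins, and spleen, which holds many small blood cells, both carry these mRNAs at high level.

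The motif could be seen in the promoters. RefSeq promoter sequences of the GRCm38.p6 build were at hand for 56 of the 76 genes, as 66 annotated starts. A run of at least 8 C or T letters that touched the stretch from 10 bases before to 20 after the start was present in 45.5% of these promoters, against 16.9% of all 32851 promoters. The letters CTTTC within 25 bases of the start, on either strand, stood in 31.8% of the ribosomal protein promoters and 12.5% of all promoters, and this motif may overlap the run. CCGGAAG, from 100 bases before to 50 after the start and on either strand, stood in 27.3% and 6.59%. TATAAA from 40 to 15 bases before the start was found in 0 of the 66, against 2.48% of all promoters. A match of letters is a description of the sequence and not a bound site. The 6 promoters below belong to genes with values in the comparisons that follow, and show the range from a long run to a short one. Each gives 60 bases before and 20 after the RefSeq start, with the longest pyrimidine run near the start in capitals.

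Rpl4 at chr9:64173327-64173406 (plus strand, run of 14): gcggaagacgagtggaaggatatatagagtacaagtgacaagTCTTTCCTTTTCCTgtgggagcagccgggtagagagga
Rplp0 at chr5:115559407-115559486 (plus strand, run of 7): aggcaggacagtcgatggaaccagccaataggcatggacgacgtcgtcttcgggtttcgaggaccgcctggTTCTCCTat
Rpl18 at chr7:45718011-45718090 (plus strand, run of 10): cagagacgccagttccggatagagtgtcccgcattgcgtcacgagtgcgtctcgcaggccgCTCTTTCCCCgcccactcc
Rps15 at chr10:80292371-80292450 (plus strand, run of 3): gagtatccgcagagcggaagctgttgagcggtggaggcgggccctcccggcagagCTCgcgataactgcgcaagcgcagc
Rpl27a at chr7:109519135-109519214 (plus strand, run of 20): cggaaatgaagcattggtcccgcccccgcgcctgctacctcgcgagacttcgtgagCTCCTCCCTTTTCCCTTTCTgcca
Rps27 at chr3:90213629-90213708 (minus strand, run of 9): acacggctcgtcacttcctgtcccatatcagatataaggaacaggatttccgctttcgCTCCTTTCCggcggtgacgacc

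For Rpl4 the run ends just before the RefSeq start, while the GENCODE start of the gene lies 12 bases upstream, inside the run. For Rps15 the GENCODE start lies 22 bases downstream of the RefSeq one, so its short run depends on which start is used. The outermost GENCODE starts of Rpl27a and Rpl18 lie 48 and 2614 bases upstream of the RefSeq starts shown.

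The 76 genes lie on 19 chromosomes, and their representative transcripts are short, with a median of 705 bases and a range of 271 to 3706. They also have many processed pseudogenes. A median of 55.47% of the 50-base words of a ribosomal protein gene occurred in another annotated gene, and this share was above 50% for 46 of the 76, reaching 98.65% for Rps27. The sources used here do not give how reads that match several places were counted, so the count of a gene with close copies may be split with them. Rows with pseudogene symbols held 0.285 to 0.56% of liver reads and 0.88 to 1.13% of spleen reads.

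Together the 76 genes took a larger share of the reads in spleen than in liver. Their share of assigned reads was 1.03 to 1.85% over the 20 livers and 3.36 to 4.27% over the 19 spleens, with no overlap. In livers it averaged 1.48 ± 0.226% in KP (SD, n = 5), 1.24 ± 0.178% in KD, 1.49 ± 0.104% in WP and 1.27 ± 0.242% in WD. The KP livers had shares of 1.42, 1.85, 1.38, 1.49 and 1.25%, and the KD livers 1.44, 1.03, 1.39, 1.25 and 1.1%. The WP livers had 1.51, 1.65, 1.47, 1.41 and 1.39%, and the WD livers 1.03, 1.19, 1.66, 1.33 and 1.15%. Each PCB-153 group thus had the higher mean of its pair, while its libraries overlapped those of the DMSO group. In spleens the share averaged 3.75 ± 0.257% in KP, 3.94 ± 0.266% in KD, 3.96 ± 0.198% in WP (n = 5 each) and 4.09 ± 0.198% in WD (n = 4), and every pair of groups overlapped. The lowest spleen share, 3.36% in KP2, came with the highest share of reads on the 20 most abundant genes, 27.1% against 16.9 to 23% in the other spleens. In tissue RNA, fewer cells of a type and less RNA per cell cannot be told apart.

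**Figure D1:**
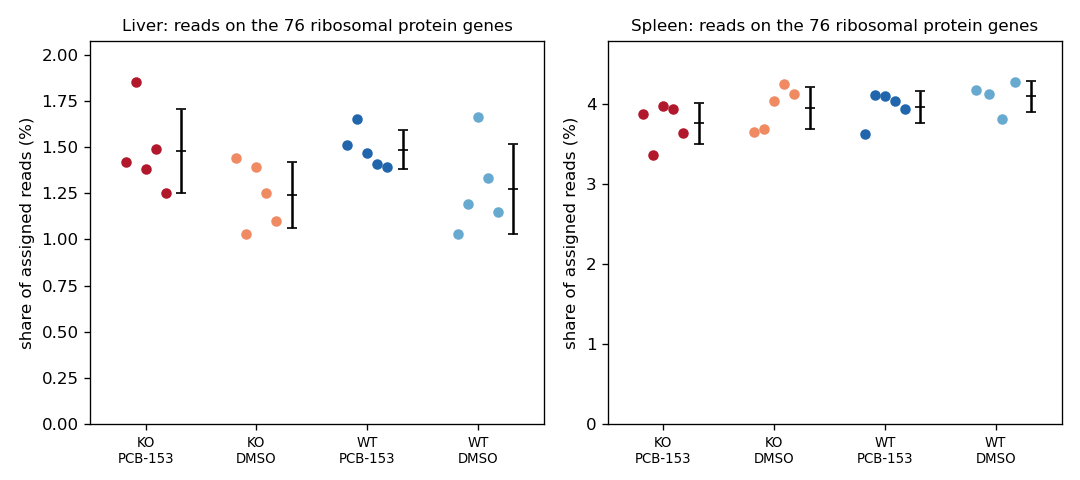
Share of assigned reads (%) on the 76 ribosomal protein genes in each library, by tissue and group, from left KO with PCB-153, KO with DMSO, WT with PCB-153 and WT with DMSO. Points are libraries and bars mean ± SD; livers lie between 1.03 and 1.85% and spleens between 3.36 and 4.27%.

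The balance of the subunits varied little. Reads on 60S genes outnumbered those on 40S genes 1.55 to 1.66 times in livers and 1.38 to 1.43 times in spleens. Group means of this ratio were 1.58 in KP, 1.57 in KD, 1.60 in WP and 1.60 in WD livers, and 1.42, 1.40, 1.41 and 1.41 in the same order of spleens.

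Levels per length, in reads per kilobase of transcript per M assigned reads, differed widely between the genes. In liver the highest was Rplp1, an acidic protein of the ribosomal stalk, at 639.9 ± 120 (SD, n = 20). It was followed by Rpl10, a late-joining protein near the catalytic centre, at 538.6 ± 91.1, and Rps18 at 514.1 ± 122. These 3 were not apart from each other in every liver. The lowest were Rpl5, which binds 5S ribosomal RNA, at 98.68 ± 6.95, Rps3, at the mRNA entry channel, at 94.75 ± 10.8, and Rps20 at 37.2 ± 8.59, which was below Rps3 in all 20 livers. In spleen the highest were Rplp1 at 1494 ± 122 (n = 19), Rps12 at 1283 ± 116 and Rps18 at 1238 ± 83.5, again not apart in every library. The lowest were Rpl37 at 286.8 ± 23.5, Rpl35 at 282.1 ± 26.8 and Rps20 at 101.5 ± 7.56. The low values of Rps20, Rpl5 and Rps3 go with long annotated transcripts, of 3706, 2045 and 1908 bases, and a shorter real transcript would raise them.

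**Figure D2:**
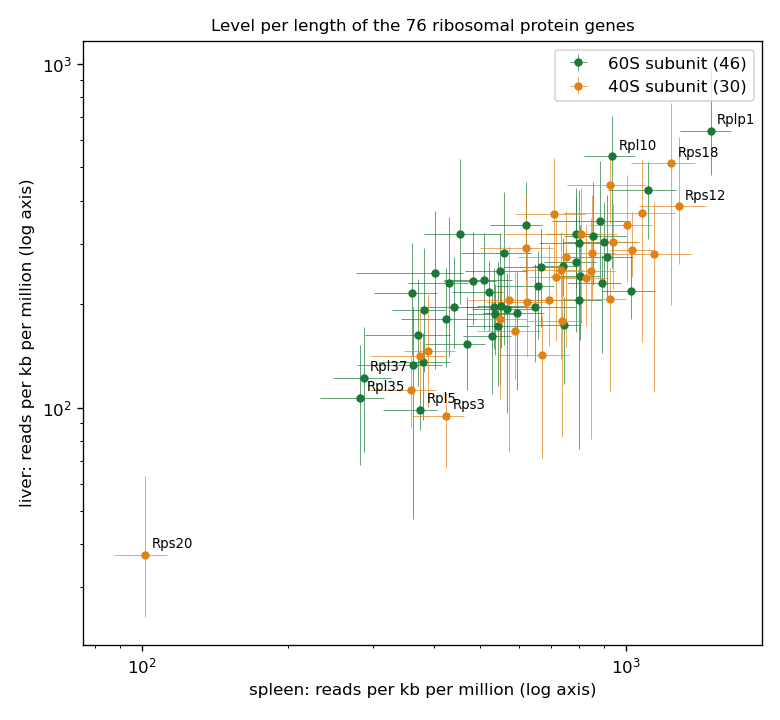
Mean level per length of each ribosomal protein gene in liver (vertical log axis) against spleen (horizontal log axis), in reads per kilobase per M assigned reads, with bars from the lowest to the highest library. Rplp1 is highest in both tissues (639.9 and 1494) and Rps20 lowest (37.2 and 101.5).

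The order of the levels was similar in the 2 tissues, with a Spearman correlation of 0.76 over the 76 genes, which share their lengths and base composition between tissues. In the WD groups, a gene's share of all ribosomal protein reads was within 0.25 log2 units of the other tissue for 41 of the 76, and for 40 without liver WD1, a library described below that stood apart. Rpl36 had the highest ratio of liver to spleen, 1.94, with 0.744 to 1.01% of these reads in WD livers and 0.402 to 0.452% in WD spleens (n = 5 and 4). Rpl38, needed in mice for the translation of certain developmental genes, had a ratio of 1.74, and Rpl24, at the bridge between the subunits, of 1.69. At the other end stood Rps4x (0.604), Rps3 (0.615) and Rps15a (0.618), with Rps4x at 1.41 ± 0.271% in WD livers and 2.34 ± 0.0733% in WD spleens (SD). This end depended on WD1, since without it Rps3 (0.624) and Rplp0 (0.629) were lowest, followed by Rps4x (0.642) and Rps15a (0.667). The ratios of Rpl36, Rpl38 and Rpl24 were then 1.99, 1.85 and 1.74. For 29 of the 76 genes, all 20 livers lay on one side of all 19 spleens. Such a count was not made for other genes, so it cannot be read as particular to the 76. Tissue and library set cannot be told apart here.

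One liver library stood apart. In most livers the 76 genes moved up or down together, with an SD of their log2 deviations from each gene's mean of 0.06 to 0.16 within a library, but in WD1 it was 0.42. Relative to that library's own median of the 76, 11 genes were more than 0.5 log2 units lower and 7 more than 0.5 higher. The lowest were Rps14 (-1.09), Rpl39 (-0.96), Rps21 (-0.95) and Rpl9 (-0.93), and the highest Rpl35 (0.71), Rps26 (0.69), Rpl28 (0.61) and Rpsa (0.59). The Rps14 count there was 951.2, against 2439 to 3264 in the other WD livers, and the Rpl9 count 1009 against 2590 to 2875. Mitochondrial transcripts took 12.4% of the reads of WD1, the highest share of any liver. Without WD1 the WD livers had a share of 1.33 ± 0.232% on the 76 genes and a ratio of 60S to 40S reads of 1.59 (SD, n = 4). The main values of liver comparisons with WD are followed by values without this library. WD1 also enters the spread used for the other liver comparisons, since limma fitted the 4 groups together.

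**Figure D3:**
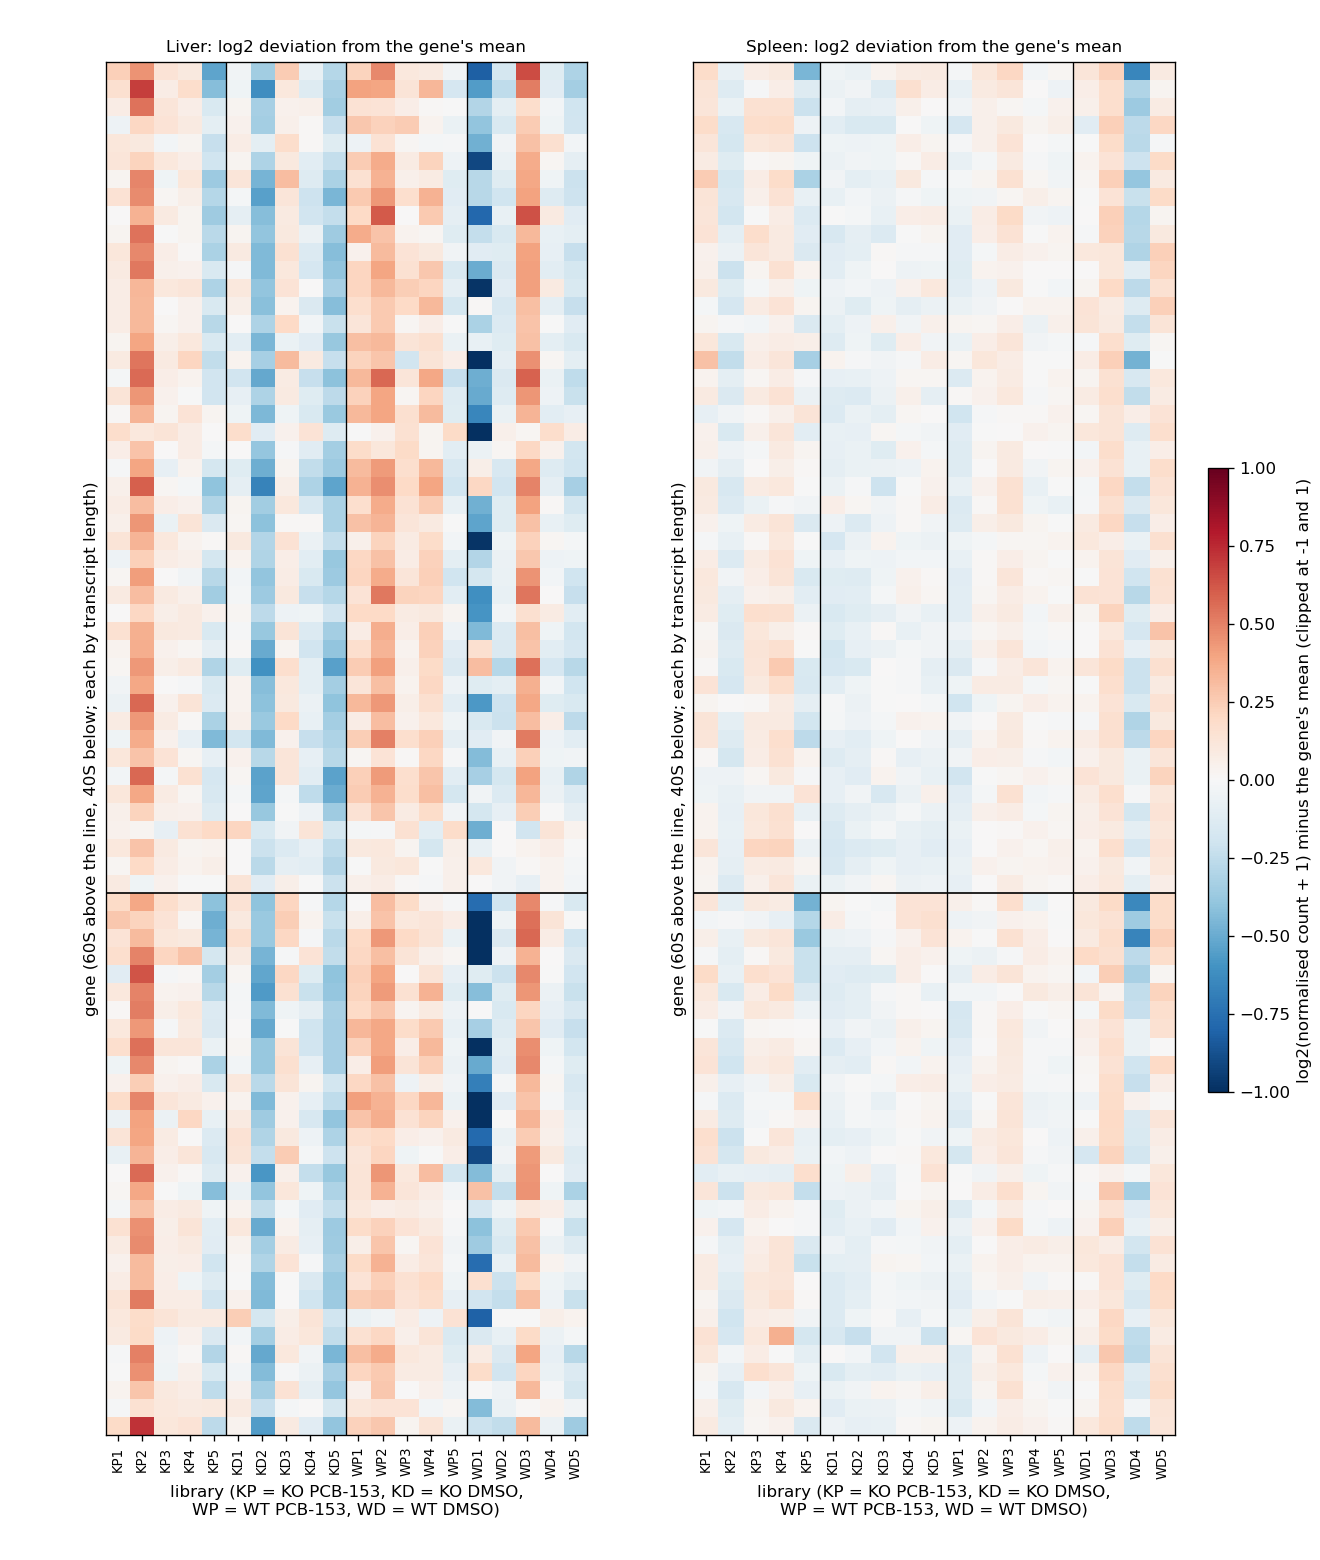
Deviation of each ribosomal protein gene (rows, 60S above 40S and by transcript length) from its mean over the libraries of a tissue, in log2 units, for each library (columns, KP, KD, WP, WD from left). Liver columns are mostly of 1 colour, with KP2 and WD3 high and KD2 low, while WD1 mixes strong decreases with increases.

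A smaller pattern was shared by single libraries of other groups. In spleens WD4 and KP5 the SD within the library was 0.14 and 0.13, against 0.03 to 0.07 in the other spleens. Relative to the library's median, Rps29 was at -0.47, Rpl38 at -0.46 and Rps28 at -0.46 in WD4. In KP5, Rps28 was at -0.40, Rpl38 at -0.39 and Rps29 at -0.30. Rps14 (0.23 in WD4, 0.25 in KP5) and Rpl18 (0.26 and 0.20) were among the highest in both. Liver KP5 also had Rpl38 (-0.37), Rps27 (-0.33) and Rps29 (-0.31) lowest. Transcripts of Rps28, Rpl38, Rps27 and Rps29 are 271, 345, 345 and 390 bases long, among the shortest of the 76. Liver KP5 had the most reads of any liver (28.65 M), and spleens KP5 and WD4 (24.11 and 24.03 M) more than all other spleens except WP5 at 29.52 M, whose SD was 0.03.

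Within groups the genes varied together. In livers the deviations from the group mean had a median correlation of 0.81 over the 2850 pairs of genes, as a description over 20 libraries that share depth and scaling, and 98.7% of the pairs were positive. Least tied to the rest were Rpl3, Rpl5 and Rpl4, with transcripts of 1351, 2045 and 1538 bases, at 0.19, 0.24 and 0.41. In spleens the median correlation was 0.77 over 19 libraries, and Rps14 and Rpl18 were among the least tied, at 0.26 and 0.30. The spread between libraries of a group, pooled over groups, was smallest for Rpl5 and Rpl4 (0.08 each) and Rplp0 (0.10) in livers, with a median of 0.24 over the 76 on the log2 scale. It was largest for Rps14, Rps27 and Rpl39, at 0.38, 0.39 and 0.40. These genes were low in WD1, with counts of 951.2, 750.4 and 570.7. The other WD livers had 2439 to 3264, 1699 to 2570 and 1374 to 2011. The spread without WD1 is not given here. In spleens the median was 0.10, with Rpl4 lowest at 0.06 and Rpl38 highest at 0.23.

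PCB-153 was compared with DMSO in knockout livers to ask whether exposure changed these genes in animals labelled as lacking the receptor. None of the 76 passed the limma test at an adjusted p of 0.05, and nor did any of the other genes, so that 0% of 16155 genes were called. The means nevertheless lay higher after PCB-153 for 75 of the 76, where 49.5% of all genes had a higher mean. The median log2 fold change was 0.20 (1.15-fold), from -0.01 to 0.37, against -0.00 over all genes. The 46 large-subunit genes had a median of 0.20 and the 30 small-subunit genes 0.21. An unadjusted p under 0.05 was reached by 14 of the 76, all higher, against 4.48% of all genes in that direction. The 76 genes vary together between libraries, as described above, so here and below such counts are not made of independent results. The smallest adjusted p was 0.404.

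Rpl4, a large-subunit protein lining the exit tunnel, had the smallest p. Its normalised read counts were 7515, 8509, 7792, 7581 and 7709 in KP livers, against 7415, 6124, 6963, 6877 and 6037 in KD livers. All KP livers were above all KD livers. The log2 fold change was 0.23 ± 0.0769 (SE, limma adjusted p = 0.404). With DESeq2 on the recovered reads it passed, at an adjusted p of 0.0491, the same as in the authors' deposited table (0.23, adjusted p = 0.0491). It was then the only ribosomal protein gene called, where DESeq2 called 1.06% of 5754 genes. edgeR called 0 of the 76 and 0% of all genes. Rplp0, the stalk base that carries the acidic proteins, had counts of 5930, 6720, 5880, 5618 and 5658 in KP livers, against 5550, 4752, 5020, 5233 and 4647 in KD livers. These groups also did not overlap, and the log2 fold change was 0.24 ± 0.081 (limma adjusted p = 0.404). Non-overlap in the higher direction held for 3 of the 76, Rpl4, Rplp0 and Rpl18, and for 1.17% of all genes. Rpl4 and Rplp0 were among the genes of smallest spread in liver, and their fold changes were close to the median of the 76. Without KP2, the library with the highest share, the median was 0.13, with 75 of 76 means still higher.

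**Figure D4:**
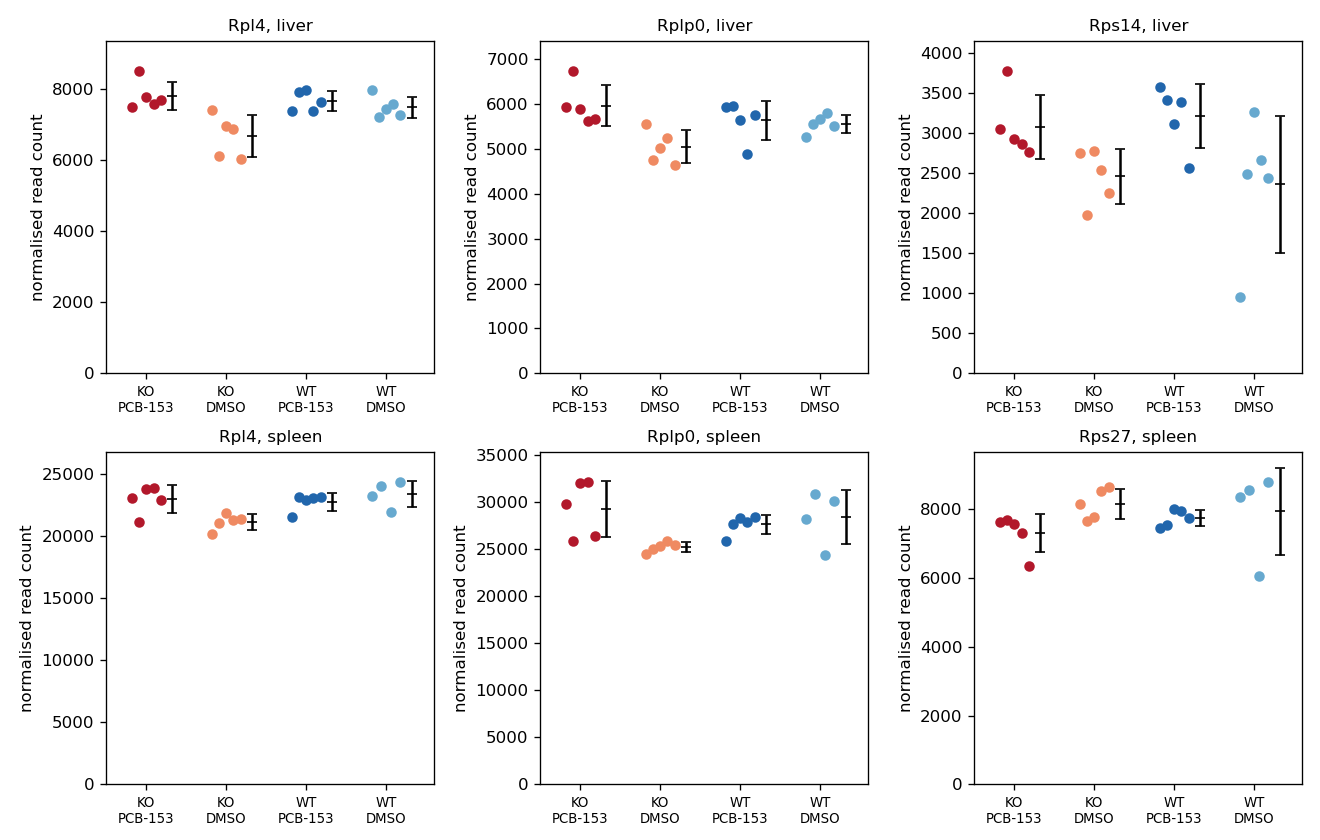
Normalised read counts by library for Rpl4, Rplp0 and Rps14 in liver (top) and Rpl4, Rplp0 and Rps27 in spleen (bottom), groups from left KO with PCB-153, KO with DMSO, WT with PCB-153 and WT with DMSO as labelled. Points are libraries and bars mean ± SD; WD1 is the single low point of liver Rps14 (951.2), and all KP livers lie above all KD livers for Rpl4 and Rplp0.

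The same exposure was compared in wild-type livers. Again 0 of the 76 and 0% of 16155 genes passed limma, and edgeR and DESeq2 also called 0 of the 76 and 0% of all genes. All 76 means lay higher after PCB-153, where 48.7% of all genes did, with a median log2 fold change of 0.21 and a range of 0.02 to 0.54. An unadjusted p under 0.05 was reached by 4, all higher, against 3.58% of all genes, and 0 of the 76 were without overlap, against 0.508% of all genes in either direction. The smallest p belonged to Rps14, a small-subunit protein at the platform, at a log2 fold change of 0.54 ± 0.219 (limma adjusted p = 0.717). Its counts were 3577, 3413, 3107, 3386 and 2561 in WP livers, against 951.2, 2488, 3264, 2668 and 2439 in WD livers. The value rests on WD1, and without that library it was 0.24 (limma adjusted p = 0.796). Rps15 averaged 3641 ± 435 in WP and 2924 ± 503 in WD livers (0.32 ± 0.131, limma adjusted p = 0.717), and 0.27 without WD1. Rpl18 had counts of 2951, 3091, 2633, 2932 and 2163 in WP livers, against 1500, 2246, 2973, 2183 and 2225 in WD livers (0.33 ± 0.142, limma adjusted p = 0.717), and 0.20 without WD1. Over the 76 genes the median without WD1 was 0.12, with 71 of 76 means higher. Without WD3, the WD liver of highest share, it was 0.32.

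The exposure difference in knockout was therefore set directly against that in wild-type livers. The interaction called 0 of the 76 and 0% of 16155 genes by limma, with 0 of the 76 at an unadjusted p under 0.05, against 2.69% of all genes, and 0% of all genes called by edgeR or DESeq2. Of the 76 values, 38 were positive and 38 negative, where 49% of all genes were positive, with a median of 0.00. The smallest p was for Rplp0 (0.23 ± 0.115), followed by Rpl4 (0.20 ± 0.109) and Rpl10a (0.17 ± 0.14), each with a limma adjusted p of 1, and without WD1 they were at 0.25, 0.18 and 0.19. For single genes the ends of the 95% intervals reached -0.88 and 0.69, so the spread of these livers leaves room for differences of that size. Without WD1 the median was 0.08, with 72 of 76 values positive, and over all single left-out livers it ran from -0.09 without WD3 to 0.09 without KD3. The 2 exposure comparisons use different libraries, and over the 76 genes their fold changes had a Pearson correlation of 0.35. That correlation includes WD1 and was not calculated without it.

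Other values moved together with this liver pattern. Among coding genes outside the 76, those with representative transcripts under 1000 bases had higher means after PCB-153 for 72.6% in knockout (median 0.12) and 78.8% in wild type (median 0.16). Those of 4000 bases or more did so for 34.9% and 32%, with a median of -0.08 in both. Of 47 nuclear genes for small subunits of the respiratory chain, also short transcripts, 46 had higher means after PCB-153 in knockout (median 0.17) and 47 in wild type (median 0.24). The 13 mitochondrially encoded mRNAs all had lower means, with a median of -0.23 in each genotype. Of 78 mitochondrial ribosomal protein genes, 66 had higher means in knockout (median 0.10) and 64 in wild type (median 0.13). Without WD1, the wild-type values were 74.8% (median 0.12) for short and 35.5% (median -0.08) for long coding genes. The respiratory chain genes were then all higher (median 0.15), 61 of the mitochondrial ribosomal protein genes were higher (median 0.08), and 11 of the 13 mitochondrial mRNAs were lower (median -0.07). The part of transcript length in the ribosomal protein values was not tested.

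Genes that act on the ribosome were split more evenly in knockout livers, while in wild-type livers the lists leaned in different directions. Of 30 translation factors and other mRNAs with the oligopyrimidine motif, 16 had higher means after PCB-153 in knockout livers (median 0.02) and 13 in wild-type livers (median -0.05). Of 51 genes of ribosome assembly, 27 were higher in knockout (median 0.01) and 16 in wild type (median -0.07). Of 26 tested regulators around mTOR and Myc, 11 and 7 were higher (medians -0.03 and -0.07). Of the 12 tested relatives outside the symbol rule, 8 and 10 were higher (medians 0.11 and 0.22). Without WD1 the wild-type medians of these 4 lists were -0.05, -0.07, -0.06 and 0.05. No gene of these lists, nor of the respiratory and mitochondrial lists, passed limma in any liver comparison.

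Knockout was then set against wild type in livers. Under DMSO 0 of the 76 passed limma, against 0.607% of all genes. edgeR called 0 of the 76 and 0.607% of all genes, and DESeq2 0 of the 76 and 1.4%. Means were higher in KD for 21 and lower for 55, where 48.8% of all genes were lower, with a median of -0.07 against 0.01 over all genes and a range of -0.33 to 0.22. Rpl4 alone had an unadjusted p under 0.05, where 6.44% of all genes did so in that direction, at 6683 ± 588 in KD and 7503 ± 295 in WD livers (SD, n = 5 each), a log2 fold change of -0.17 ± 0.0769 (limma adjusted p = 0.364), or -0.15 without WD1. No gene of the 76 was without overlap, against 3% of all genes. Rpl27a was at -0.27 ± 0.145 (limma adjusted p = 0.459), or -0.30 without WD1. The lowest value, for Rpl28, and the highest, for Rpl9, belong to genes that were high and low in WD1. Without WD1 the median was -0.14 and 75 of 76 means were lower in KD, and without KD3 it was also -0.14. Without WD3 the median was 0.04, so the direction depends on that library.

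After PCB-153 0 of the 76 passed limma, against 1.45% of all genes, and 0 had an unadjusted p under 0.05, against 10.7% of all genes. edgeR called 0 of the 76 and 1.36% of all genes, DESeq2 0 and 1.95%, and 0 of the 76 were without overlap, against 2.59%. Means were lower in KP than in WP livers for 60 of the 76, where 49.6% of all genes were lower, with a median of -0.06 and a range of -0.24 to 0.11. Rpl27a had the smallest p, with counts of 3737, 4991, 3967, 3655 and 2849 in KP livers, against 4567, 5478, 4334, 4545 and 3627 in WP livers (-0.24 ± 0.145, limma adjusted p = 0.607). Rpl19 (-0.18 ± 0.137) and Rpl28 (-0.19 ± 0.183) came next, with limma adjusted p-values of 0.704 and 0.797. Without KP2 the median was -0.15, and without KP5 it was -0.00. Rpl24 and Rpl35a lie on chromosome 16, as Nr1i2 does, and their genotype differences in livers were -0.04 ± 0.146 and -0.12 ± 0.19 under DMSO and -0.06 ± 0.146 and -0.18 ± 0.19 after PCB-153.

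**Figure D5:**
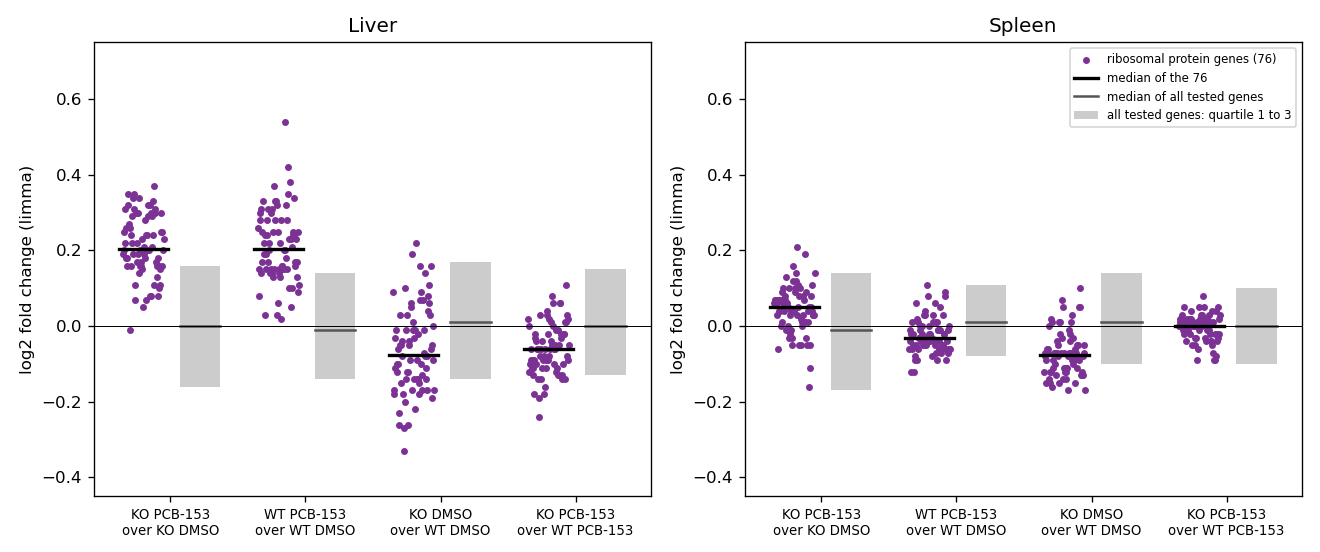
Log2 fold change of each ribosomal protein gene (points, black line for the median) beside the range from quartile 1 to quartile 3 and the median of all tested genes (grey) in 4 comparisons per tissue, the first-named group over the second; KO in spleen is as labelled. In liver nearly all points of both PCB-153 comparisons lie above 0 (medians 0.20 and 0.21), and in spleen the points stay close to 0.

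In spleens labelled knockout, PCB-153 was compared with DMSO in the same way. Of all genes 5.3% passed limma, while 0 of the 76 did and 1 had an unadjusted p under 0.05, against 12.5% of all genes in that direction. The calls over all genes depended on single libraries, with 10 in place of 1010 without KP4, 16 without KP3, 20 without KD5, 42 without KP1 or KD3, 118 without KD4, 403 without KD2, 2224 without KP5 and 3704 without KP2. A fit of the KP and KD spleens alone gave 184. None of the 76 was without overlap, against 4.62% of all genes. Means were higher in KP for 60 of the 76, against 48.7% of all genes, with a median of 0.05 and a range of -0.16 to 0.21. Rplp0 had the smallest p, with counts of 29813, 25894, 31967, 32083 and 26388 in KP spleens, against 24434, 25052, 25287, 25903 and 25402 in KD spleens. The highest KD spleen was just above the lowest KP spleen, and the log2 fold change was 0.21 ± 0.0797 (limma adjusted p = 0.119). DESeq2 called it, at an adjusted p of 0.0293, as in the authors' deposited table (0.21, adjusted p = 0.0293), and limma did so without KP2 (0.25, adjusted p = 0.0323). Rpl4 had counts of 23054, 21101, 23788, 23891 and 22924 in KP spleens, against 20119, 21061, 21824, 21256 and 21397 in KD spleens (0.12 ± 0.0615, limma adjusted p = 0.244). DESeq2 gave it an adjusted p of 0.0466, as the authors' deposited table did. These 2 were the only DESeq2 calls among the 76, where DESeq2 called 12.4% of 16385 genes. edgeR called 0 of the 76 and 5.15% of all genes. Rpl3, at the peptidyl transferase centre, came between them by p, at 0.13 ± 0.0645 (limma adjusted p = 0.226).

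The direction of the spleen values depended on the scaling. Over all genes limma called 530 higher and 480 lower in KP as deposited, 249 and 2131 with each spleen scaled to its total of reads, and 362 and 498 under quantile normalisation. When each spleen was scaled to the same total of reads, the median of all genes moved to -0.14, the median of the 76 was -0.09, and 71 of the 76 had lower means in KP. Under quantile normalisation the median of the 76 was -0.10 with that of all genes at -0.00, and 75 had lower means. Rps27, a zinc-finger protein of the small subunit, was then called lower by limma under both, at -0.29 (adjusted p = 0.0249) and -0.31 (adjusted p = 0.032). Its deposited values were 7616, 7694, 7561, 7317 and 6348 in KP spleens, against 8142, 7654, 7781, 8533 and 8646 in KD spleens (-0.16 ± 0.0855). Rpl17, Rps13 and Rps24, chosen after their values were seen, were called lower under quantile normalisation alone, at -0.22, -0.20 and -0.21 (adjusted p of 0.0327, 0.0482 and 0.0447). Rplp0 stayed positive under every scaling, at 0.02 or more.

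Cell type markers moved with this comparison. Of 5 B cell markers 4 were called lower in KP, with a summed share of 0.0788 to 0.136% of reads in KP spleens against 0.153 to 0.201% in KD spleens. Of 5 erythroid markers 3 were called higher (0.758 to 0.915% in KP against 0.526 to 0.755% in KD), and of 7 neutrophil markers 6 (0.0205 to 0.0407% against 0.0173 to 0.024%). All 5 proliferation markers had higher means, with a median of 0.46 and 1 called, and so had all 47 respiratory chain genes, with a median of 0.15 and none called. Of the B cell, erythroid and neutrophil markers none was called without KP3, KP4, KD3 or KD5, while their medians kept their direction, at -0.50 or lower for B cell, 0.48 or higher for erythroid and 0.59 or higher for neutrophil markers over all left-out KP and KD spleens. None of these markers was at 0 in every spleen. Their part in the ribosomal protein values was not tested. Leaving out KP2 gave a median of 0.08 for the 76, and leaving out KP1, KP3 or KP4 gave 0.03 each. Without both KP1 and KP4, the spleens with the most pancreas marker reads, the median of the 76 was 0.00 and 38 had higher means. Of the translation factors 1 passed limma, Eif4a2, an RNA helicase of initiation, at 5389 ± 247 in KP and 6433 ± 183 in KD spleens (-0.26 ± 0.075, adjusted p = 0.0494, SD with n = 5 each). It was the only one of the 30 with a lower mean, and the list's median was 0.10. Mxd1, a repressor of Myc targets, was the only called gene of the mTOR and Myc list, at 4069 ± 283 in KP and 2850 ± 458 in KD spleens (0.52 ± 0.114, adjusted p = 0.0259). With 1 KP or KD spleen left out, limma called Eif4a2 in 2 of 10 fits (adjusted p of 0.0329 to 0.132) and Mxd1 in 4 of 10 (0.00824 to 0.081). Of 51 ribosome assembly genes 40 had higher means (median 0.08), with none called.

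In wild-type spleens PCB-153 and DMSO differed little in these genes. Limma called 0 of the 76 and 0% of 19058 genes, and 0 of the 76 had an unadjusted p under 0.05, against 3.81% of all genes. edgeR called 0 of the 76 and 0% of all genes, DESeq2 0 and 0.00554%, and 0 of the 76 were without overlap, against 1.39%. Means were lower in WP for 57 of the 76, against 47.7% of all genes, with a median of -0.03 and a range of -0.12 to 0.11. Rpl18 and Rpl12 had the smallest p, at -0.12 ± 0.0658 and -0.12 ± 0.071, and Rps3 followed at -0.09 ± 0.0683 (limma adjusted p = 0.943 for each). The Rpl18 counts were 6917, 7881, 8015, 8032 and 8180 in WP spleens, against 8062, 8703, 8350 and 8757 in WD spleens. Without WD4 the median was -0.10, and without WD3 it was 0.01, which turned its sign. The ends of the 95% intervals of single genes lay at -0.27 and 0.40.

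Under DMSO, spleens labelled knockout had lower means than wild type for 65 of the 76, against 48.1% of all genes, with a median of -0.08 against 0.01 over all genes and a range of -0.17 to 0.10. Limma and edgeR each called 0 of the 76 and 0.0315% of all genes, and DESeq2 0 and 0.0874%. An unadjusted p under 0.05 was reached by 5, all lower, against 4.45% of all genes in that direction. Rpl4 had counts of 20119, 21061, 21824, 21256 and 21397 in KD spleens, against 23171, 23988, 21943 and 24304 in WD spleens. The groups did not overlap, and the log2 fold change was -0.14 ± 0.0653 (limma adjusted p = 0.463). Rpl18 also did not overlap, at 7251, 7609, 7417, 8051 and 7984 in KD spleens against 8062, 8703, 8350 and 8757 in WD spleens (-0.14 ± 0.0658, limma adjusted p = 0.463). Rpl12, of the ribosomal stalk, followed at -0.15 ± 0.071 (limma adjusted p = 0.471). Lower without overlap were thus 2 of the 76 and 1.84% of all genes. Without WD4 the median was -0.15, and without WD3 it was -0.04. In the same comparison 74 of 78 mitochondrial ribosomal protein genes had lower means (median -0.14), 45 of 51 ribosome assembly genes (median -0.09), 27 of 30 translation factors (median -0.09) and 46 of 47 respiratory chain genes (median -0.12), with none called. The 13 mitochondrial mRNAs were all higher (median 0.24). That value leans on WD5, where their median log2 deviation was -0.60, against -0.07, -0.05 and 0.07 in WD1, WD3 and WD4. A value without WD5 is not given here. All 7 neutrophil markers had lower means (median -0.75), at 0.0173 to 0.024% of reads in KD spleens against 0.0261 to 0.0403% in WD spleens. All 5 proliferation markers were lower (median -0.25) and all 4 tested macrophage markers higher (median 0.23), with none called. The part of these cell types in the values was not tested. Coding genes outside the 76 with transcripts under 1000 bases had a median of -0.06 and those of 4000 or more 0.07, and the part of length was not tested. Rpl24 and Rpl35a on chromosome 16 were at -0.09 ± 0.079 and 0.01 ± 0.0899.

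After PCB-153, spleens labelled knockout and wild type had nearly the same values. Limma called 0 of the 76 and 0.157% of all genes, and 0 of the 76 had an unadjusted p under 0.05, against 10.9% of all genes. edgeR called 0 of the 76 and 0.341% of all genes, DESeq2 0 and 1.16%, and 0 of the 76 were without overlap, against 2.05%. The median was 0.00, with 43 means higher and 33 lower in KP, where 48.8% of all genes were higher, and a range of -0.09 to 0.08. Rps27 (-0.09 ± 0.0855), Rplp0 (0.08 ± 0.0797) and Rps26 (-0.07 ± 0.0957) had the smallest p, with limma adjusted p-values of 0.792, 0.802 and 0.856. Scaled to total reads or by quantiles, all 76 means were lower in KP, with a median of -0.08 in both, where total reads moved all genes to -0.09. The ends of the 95% intervals of single genes lay at -0.37 and 0.25.

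The spleen interaction called 0 of the 76 and 0% of all genes by limma, edgeR 0 and 0%, and DESeq2 0 of the 76 and 0.131%. The exposure difference was more positive in labelled knockout for 60 of the 76, against 49.1% of all genes, with a median of 0.08. The median turned negative under total-read scaling (-0.04, all genes at -0.12) and quantile normalisation (-0.05). It was 0.15 without WD4 and 0.04 without WD3. Rpl18 (0.19 ± 0.0905), Rplp0 (0.24 ± 0.116) and Rps3 (0.17 ± 0.0939) had the smallest p, with limma adjusted p-values of 0.504, 0.508 and 0.55. The first 2 were the only ones of the 76 with an unadjusted p under 0.05, both higher, against 3.83% of all genes in that direction.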

How the data were processed

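Per the labels' protocols, RNA was extracted with Trizol from frozen liver and spleen and made into Illumina TruSeq libraries. The labels name both a TruSeq RNA kit and a TruSeq stranded mRNA kit. STAR 2.6.0, featureCounts, FastQC, DESeq2 and the build mm10 appear in the submitters' processing notes; for counting options, strand and annotation the sources used here give nothing. The signal tables deposited by the authors, 1 per tissue, hold normalised read counts, reads divided by 1 size factor per library. Division by the value of 1 read gave whole reads for 100% of values within 0.05. The authors also deposited comparison tables with log2 fold changes and p-values, some of which list significant genes only.

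For genes averaging at least 10, limma 3.58.1 in R 4.3.3 was run on log2(value + 1) (lmFit, contrasts.fit, eBayes with trend), in 1 fit per tissue over 4 groups. Tests were two-sided and adjusted by Benjamini-Hochberg over all tested genes of a tissue, and a gene is called at an adjusted p under 0.05. Fold changes are on that log2 scale, with SE. edgeR 4.0.16 (quasi-likelihood, TMM) and DESeq2 1.42.0 (Wald test) were run on the recovered reads. The limma fit was tested on simulated reads with known changes. Shares and levels per length used recovered reads and GENCODE M21 transcripts (GRCm38), taking for each gene 1 coding transcript by APPRIS level, CCDS tag and then shortest length. Counting error is small at these depths, so replicate spread sets the precision.

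The 76 genes, the other lists and the tests were chosen with earlier results of these data known. Named in each comparison are the 3 genes of smallest p where fewer than 3 were called, those of highest and lowest level, and called genes of other lists; others were chosen after their values were seen, and a few that the rule names are not reported here. Alternatives were pseudocounts of 0.5 and 5, no filter or a minimum mean of 50, quantile normalisation, scaling to total reads or by TMM, the compared groups only, a replicate block, each library left out, edgeR and DESeq2. Leaving out pairs of libraries, and the values of other lists and of tissue ratios with libraries left out, were added after seeing the data. Same-numbered libraries of different groups had correlations of -0.378 to 0.449 in liver and -0.229 to 0.271 in spleen over tested genes, so the numbers were not taken to pair them. Every pair of libraries within a group differed beyond counting noise (lowest chi-square over its degrees of freedom 9.98 for livers, 4.67 for spleens).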

Additional observations from a re-analysis of the deposited data

Results flagged for a closer look

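A library was singled out where its gap to the next of its group took up most of the group's range (Dixon's test). Of 92 groups of values tested, 16 met this, where chance gives about 1 in 20, and the values of these genes are not independent. Shares, ratios and spreads went into this test rounded as printed here, so ties from rounding may add flags. In KP livers, KP2 was highest for Rpl4 (8509, next 7792), Rplp0 (6720, next 5930), Rpl10a (3266, next 2820) and Rps14 (3768, next 3045). In WD livers, WD3 was highest for Rpl27a (5528, next 3761). WD1 had the highest spread of the 76 genes within a library (0.42, next 0.16) and the highest ratio of 60S to 40S reads (1.66, next 1.60). WP5 had the lowest such ratio of the WP livers (1.57, next 1.60).

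In spleen, the spread within the library was highest in KP5 for KP (0.13, next 0.07) and in WD4 for WD (0.14, next 0.06). The same libraries had the lowest Rps27 counts, 6348 in KP5 (next 7317) and 6059 in WD4 (next 8357). WP1 was lowest of the WP spleens for Rpl12 (11655, next 13243), Rpl18 (6917, next 7881) and Rpl4 (21496, next 22884). WD3 had the lowest ratio of 60S to 40S reads of the WD spleens (1.39, next 1.42).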

How the results depend on the processing

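Of the alternative values for the counts of called genes, the medians and the shares, 564 moved by less than 1 SD between libraries or, for counts, remained at 0. The other 10, all in comparisons of PCB-153 with DMSO in knockout or the spleen interaction, were as follows. DESeq2 called 1 of the 76 in liver and 2 in spleen. Leaving out spleen KP2 gave 1 call (range over left-out libraries 0 to 1), where limma called 3704 of 19058 genes. Leaving out spleens WD4 and KP5 together, an alternative chosen after the data were examined, also gave 1 call, Rplp0 (0.24, limma adjusted p = 0.0368). The calls over all genes in that fit are not given here, while without KP5 alone there were 2224. In spleen, total-read scaling gave 1 call, a median of -0.09 and an interaction of -0.04, and quantile normalisation 4 calls, -0.10 and -0.05; the cause was not tested. Under these 2 scalings, 3 named genes changed sign in spleen; total-read scaling moved the median of all genes by about as much, to -0.14 for PCB-153 in knockout and -0.09 for genotypes after PCB-153. For knockout, Rpl3 was at -0.08 (quantile) and -0.01 (total), and Rpl4 at -0.07 and -0.02. For genotypes after PCB-153, Rplp0 was at -0.02 and -0.01.

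The limit of 1 SD is wide in liver. There the mean of the 76 had an SD of 0.192 between libraries of a group, near the PCB-153 medians of 0.20 and 0.21. Among the smaller moves, some turned a sign. The median was 0.04 for genotype under DMSO in liver and 0.01 for PCB-153 in wild-type spleen, both without WD3, and -0.08 under both scalings for genotypes after PCB-153 in spleen. Leaving out single libraries moved the median of the 76 between 0.13 and 0.28 for PCB-153 in knockout livers, 0.12 and 0.32 in wild-type livers, and -0.14 and 0.04 for genotype under DMSO. With a replicate block 0 of the 76 were called in any comparison and the liver medians for PCB-153 remained 0.20 and 0.21. Best matches carried the same number for 3 of 20 livers and 5 of 19 spleens, and the numbers were not taken to pair the libraries. This count cannot exclude a link between same-numbered libraries. The standard error was near 0.143 per gene in liver and 0.074 to 0.0785 in spleen. Single-gene differences of the size seen in liver are hard to call at that precision. The 76 genes vary together between libraries, so their number adds little certainty to a shared difference. No test was made of that difference.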
